A study of Mus musculus with 20 samples.

Results

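Homozygous *Dup* and homozygous *Inv2* limb buds carry a pair of rearrangements of the *Lbx1*/*Fgf8* locus that end at the same telomeric position, base 45792725 of chromosome 19 (mm9). Their capture Hi-C maps were set directly against each other. In *Dup* the 541 kb from there back to 45251633 are present in tandem, and in *Inv2* the 460 kb back to 45332288 are turned around. The 8 libraries of these genotypes, 4 for each, were taken from the 20 of the series by their labelled genotype and rearrangement. Each set of 4 came from pooled forelimb and hindlimb buds of E11.5 embryos, with 3 biological replicates and a technical repeat, and the authors merged each set into 1 map. The labels give the *Dup* and *Inv2* libraries a G4 embryonic stem cell background (129sv/C57Bl6 hybrid), and the wild-type embryos, merged from 4 libraries and used here as a background, C57BL/6J. For the *Dup* limbs of its single-cell experiment the study names a C57Bl6 background, and founders were bred with C57BL/6 animals, so a difference in background between *Dup* and *Inv2* cannot be told apart from that in genotype. The alleles were carried in all cells of the limb bud, of which the apical ectodermal ridge (AER) is a small part, so the maps describe mostly mesenchyme.

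Capture Hi-C counts how often fragments of a chosen region are joined after crosslinking, and the contact of an enhancer with a promoter depends on their distance and on the domain boundaries between them. *Fgf8* encodes a growth factor made in the AER, the ectodermal rim that keeps the limb bud growing out, and it is switched on there by enhancers spread through and around the neighbouring *Fbxw4* gene. *Lbx1*, a homeobox gene used by muscle precursors on their way into the limb, lies in the adjacent domain. So does *Btrc*, whose product picks proteins for ubiquitin-dependent breakdown. Both rearrangements move the enhancers nearer to *Lbx1*. *Dup* does so while leaving the reference order intact at the outer ends of its copies, and *Inv2* does so in place of the reference order.

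The sequences at the breakpoints show how the same telomeric end was given different partners. They are from the mm9 reference, 20 bases on each side of the breakpoint or joint, with the bases that end at the shared breakpoint in capitals. The repair products themselves were not examined, so the last 3 are what a clean join of the reference ends would give.
Shared telomeric breakpoint (chr19:45792706-45792745, plus strand): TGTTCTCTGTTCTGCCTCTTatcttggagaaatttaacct
Centromeric Dup breakpoint (chr19:45251614-45251653, plus strand): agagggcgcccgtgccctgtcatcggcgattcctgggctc
Centromeric Inv2 breakpoint (chr19:45332269-45332308, plus strand): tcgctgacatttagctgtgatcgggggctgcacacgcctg
Joint of the Dup copies: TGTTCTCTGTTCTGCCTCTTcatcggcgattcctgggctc
Centromeric Inv2 joint: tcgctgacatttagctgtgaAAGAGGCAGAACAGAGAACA
Telomeric Inv2 joint: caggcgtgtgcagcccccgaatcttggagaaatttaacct
In the *Dup* joint the capitals read as in the reference and run into the sequence that starts at 45251634. In *Inv2* they are the reverse complement and follow the sequence that ends at 45332288, while the bases beyond the shared breakpoint follow the reverse complement of the sequence that starts at 45332289.

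The shared breakpoint lies between genes, 57.9 kb beyond the start of *Fbxw4* and 24.7 kb before the start of *Fgf8*, counted along the reference. The centromeric *Dup* breakpoint lies 58.7 kb from the start of *Lbx1* on one side, and the centromeric *Inv2* breakpoint 21.99 kb from it on the other. The 80.7 kb between both centromeric breakpoints hold *Lbx1* (45307178 to 45310301, minus strand) as the only protein-coding gene that starts there. This *Lbx1* segment is duplicated in *Dup* and left in place in *Inv2*. *Btrc* (45438224 to 45607831, plus strand), *Poll*, *Dpcd* and *Fbxw4* (45652744 to 45734802, minus strand) are duplicated in *Dup* and inverted in *Inv2*, and *Fgf8* (45811288 to 45817405, minus strand) is outside both. The middle of the enhancer interval (45655001 to 45705000) lies within the *Fbxw4* gene. It is 370 kb from the start of *Lbx1* in the reference order, 171 kb across the joint of the *Dup* copies and 135 kb in *Inv2*. From the start of *Fgf8* it is 137 kb in the reference order and in the telomeric *Dup* copy, and 372 kb in *Inv2*.

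The maps covered 392 bins of 5 kb, from 44440001 to 46400000, and 387 bins had values in all maps used. Dividing out the bin factors of the deposited signal gave 13101700 read pairs in *Dup*, 12790852 in *Inv2* and 7867931 in the wild-type, with a median of 35, 41 and 21 read pairs per bin pair with a value. Because the libraries of a genotype are merged, no spread between limb buds and no test could be computed, and every interval below is a 95% counting interval that covers counting error only. For the comparison, the *Dup* map was balanced so that every bin has the same total, as it is in the *Inv2* map. A value of a duplicated bin is then its average share over both copies, which the reads do not tell apart. The maps were next scaled to each other at every distance, over bin pairs outside the rearranged interval. Ratios from the *Dup* map as deposited, which keeps the copy number, are given as copy-number-kept ratios.

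Read pairs per bin separated the alleles in copy number. Relative to the bins outside, those of the duplicated interval held 2.01 times as many read pairs in *Dup* as in *Inv2*, and 1.02 times as many in *Inv2* as in the wild-type. The 107 bins in or at the ends of the interval ranged from 1.41 to 2.99 times with a median of 2.02, and the 280 outside from 0.686 to 1.47 times with a median of 0.990. The ranges overlapped only at their ends. The lowest bin inside was the 1 that holds the shared breakpoint, and the highest outside lay close to the centromeric *Dup* breakpoint. At the shared breakpoint the ratio stepped from 1.95 over the last 50 kb inside to 0.973 over the first 50 kb outside. Close to the centromeric *Dup* breakpoint the ratio was higher than elsewhere, 2.39 over the first 50 kb inside, where *Inv2* itself held 0.868 times the wild-type read pairs.

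**Figure D1:**
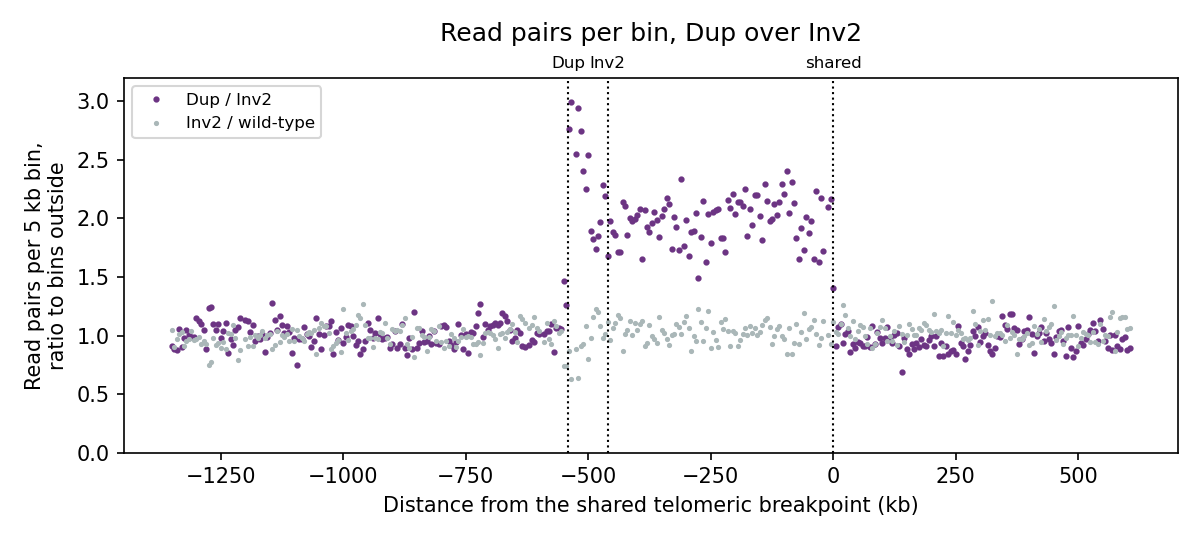
Read pairs per 5 kb bin, divided by the mean of the bins outside the rearranged interval, as the ratio of Dup to Inv2 (purple) and of Inv2 to wild-type (grey), against the distance from the shared telomeric breakpoint in kb. Dotted lines mark the breakpoints. The Dup over Inv2 points lie around 2.02 inside the Dup interval and around 0.990 outside it, with the highest, 2.99, next to the centromeric Dup breakpoint.

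The last 50 kb inside the shared breakpoint, which hold no gene start and which both alleles carry to a new place, met different sequence in each map. Seen from this end, the strongest contact around the centromeric breakpoints was with the bin from 45255001 to 45260000 in *Dup*, the first whole bin inside the *Dup* breakpoint, with a signal of 81.8 against 14.3 in the wild-type. In *Inv2* it was with the bin from 45325001 to 45330000, the last whole bin before the *Inv2* breakpoint, with a signal of 148 against 17.8 in the wild-type. In the wild-type map the strongest bin there was 45295001 to 45300000, which is next to neither breakpoint, with 24.98. So each map was highest beside its own breakpoint.

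**Figure D2:**
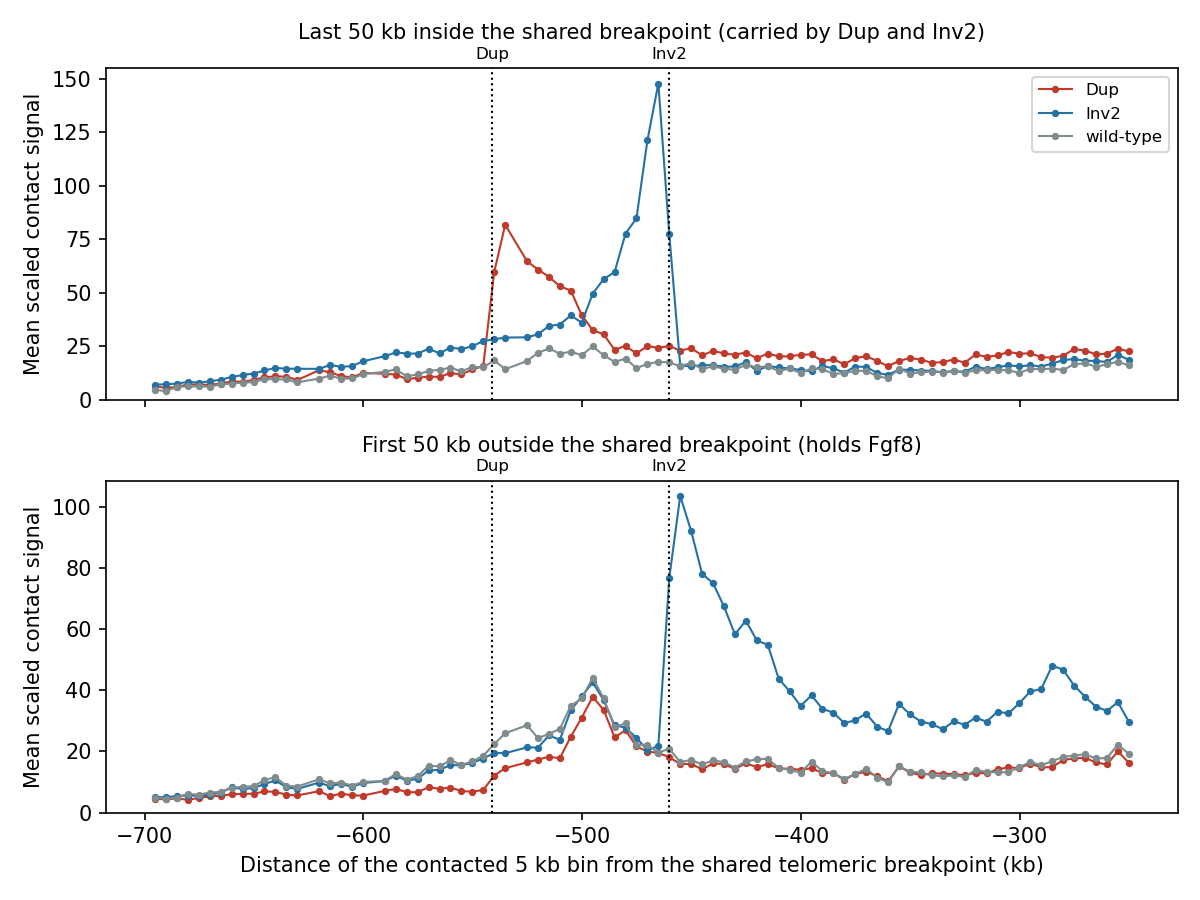
Mean scaled contact signal of the last 50 kb inside (top) and the first 50 kb outside (bottom) the shared breakpoint with each 5 kb bin, for Dup (red), Inv2 (blue) and wild-type (grey), against the distance of the bin from the shared breakpoint in kb. Dotted lines mark the centromeric breakpoints. The inner end peaks at 81.8 just inside the Dup breakpoint in Dup and at 148 just before the Inv2 breakpoint in Inv2, and the outer end reaches 103 in Inv2 and 37.8 in Dup.

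Contact fell away from these peaks in opposite directions. In *Dup* the inner end had a signal of 69.2 with the first 25 kb inside the *Dup* breakpoint, 44.1 with the next 25 kb and 23.9 with the 25 kb after that. In *Inv2* the same windows had 29.7, 40.1 and 85.9. The ratio of *Dup* to *Inv2* thus passed from 2.33 (2.19 to 2.48) through 1.10 (1.07 to 1.13) to 0.278 (0.271 to 0.286) within 75 kb. On the outer side of the *Dup* breakpoint, where *Inv2* is continuous and *Dup* is not joined to the enhancers, the 25 kb next to it had 13.6 in *Dup*, 25.2 in *Inv2* and 14.8 in the wild-type.

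Over windows of 50 kb, contact at the joint of the *Dup* copies was 55.2 in *Dup*, 35.5 in *Inv2* and 21.1 in the wild-type, a ratio of *Dup* to *Inv2* of 1.55 (1.52 to 1.59). *Inv2* was also above the wild-type here, and the window lies less than the 80.7 kb of the *Lbx1* segment from its own centromeric joint. At that joint, between the 50 kb before the *Inv2* breakpoint and the inner end, the signal was 30.4 in *Dup*, 74.8 in *Inv2* and 19.5 in the wild-type, and the ratio was 0.407 (0.400 to 0.414). With the copy number kept, which counts both copies of these windows in *Dup*, this ratio was 0.936. At the telomeric *Inv2* joint, which brings *Fgf8* next to sequence from beside the *Inv2* breakpoint, the signal was 15.4 in *Dup*, 72.0 in *Inv2* and 16.6 in the wild-type. The ratio was 0.214 (0.210 to 0.219), and 0.288 with the copy number kept. A block of 25 kb at this joint had the lowest ratio of all blocks measured, 0.157.

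The reference contact across the shared breakpoint was higher in *Dup*, which keeps this order once, than in *Inv2*. The 50 kb on either side of it had a signal of 63.7 in *Dup*, 17.2 in *Inv2* and 79.4 in the wild-type. This was 3.71 (3.62 to 3.81) times more in *Dup* than in *Inv2*, 0.802 times the wild-type in *Dup* and 0.216 times in *Inv2*. The excess of *Dup* over *Inv2* declined with distance from the breakpoint. The inner end had 4.74 times the *Inv2* contact with the first 25 kb outside, 2.58 times with the next, 1.90 times with the third and 1.33 to 1.38 times with the 25 kb windows from 100 to 200 kb. The insulation score, which gives, as log2, how the contact between the 100 kb before and the 100 kb after a position stands to the mean of the map, was −0.47 at the shared breakpoint in *Dup*, −1.64 in *Inv2* and −0.27 in the wild-type.

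At the centromeric ends, the reference contact in the balanced maps was higher in the allele that is unbroken there. Across the *Inv2* breakpoint, where *Dup* is unbroken in both copies, the signal was 77.3 in *Dup*, 24.2 in *Inv2* and 81.4 in the wild-type, a ratio of 3.19 (3.14 to 3.24). Across the *Dup* breakpoint, where *Inv2* is unbroken and *Dup* keeps the reference order before its centromeric copy only, it was 59.3, 75.8 and 71.3, a ratio of 0.782 (0.768 to 0.796) that turned to 1.13 with the copy number kept.

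To see what distance alone would give, the mean wild-type contact at each distance was laid out in the rearranged orders, summed over the copies and then balanced and scaled like the maps. At long distances a power law fitted to the wild-type means took their place. This layout knows no boundaries. For the contact across the shared breakpoint it gave a ratio of 6.69 against the 3.71 measured, for the joint of the *Dup* copies 0.740 against 1.55, for the centromeric *Inv2* joint 0.344 against 0.407 and for the telomeric *Inv2* joint 0.0984 against 0.214. The measured ratio was thus on the other side of 1 at the *Dup* joint and on the same side at the other 3. At the *Dup* joint both alleles were below the layout. Against the wild-type, *Dup* had 2.62 times the contact where the layout gave 4.41, and *Inv2* 1.68 times where it gave 5.96.

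The start of *Lbx1* met the AER enhancers more often in *Inv2* than in *Dup*. Its bin had a mean signal of 26.3 with the enhancer interval in *Dup*, 41.2 in *Inv2* and 19.7 in the wild-type, from 5002, 4885 and 1145 read pairs. Both alleles were above the wild-type, by 1.34 times in *Dup* and 2.09 times in *Inv2*, and *Dup* had 0.639 (0.614 to 0.665) times the contact of *Inv2*. The layout by distance gave 0.705. As a share of the profile of *Lbx1*, the enhancer interval took 3.50% (Wilson interval 3.40 to 3.61) in *Dup*, 5.95% (5.79 to 6.12) in *Inv2* and 2.74% (2.58 to 2.90) in the wild-type. With the copy number kept, the order turned around and *Dup* had 1.45 times the contact of *Inv2*. As a share of the contacts of *Lbx1* the enhancers were therefore lower in *Dup*, and as contact summed over the copies they were higher.

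Across the *Lbx1* segment the ordering of the alleles changed at the centromeric domain boundary. The wild-type insulation score had its minimum next to *Lbx1* at 45295000, where it was −0.58, and the score there was −0.71 in *Dup* and −0.67 in *Inv2*. In all 7 bins with values between the *Dup* breakpoint and this boundary the enhancer contact was higher in *Dup*, by 1.37 to 1.81 times. In all 7 bins between the boundary and the *Inv2* breakpoint, which include both bins of *Lbx1*, it was lower in *Dup*, at 0.469 to 0.882 times that in *Inv2*. The counting interval excluded 1 in each of the 14 bins. The layout by distance gave ratios below 1 in all 14, from 0.632 to 0.992.

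**Figure D3:**
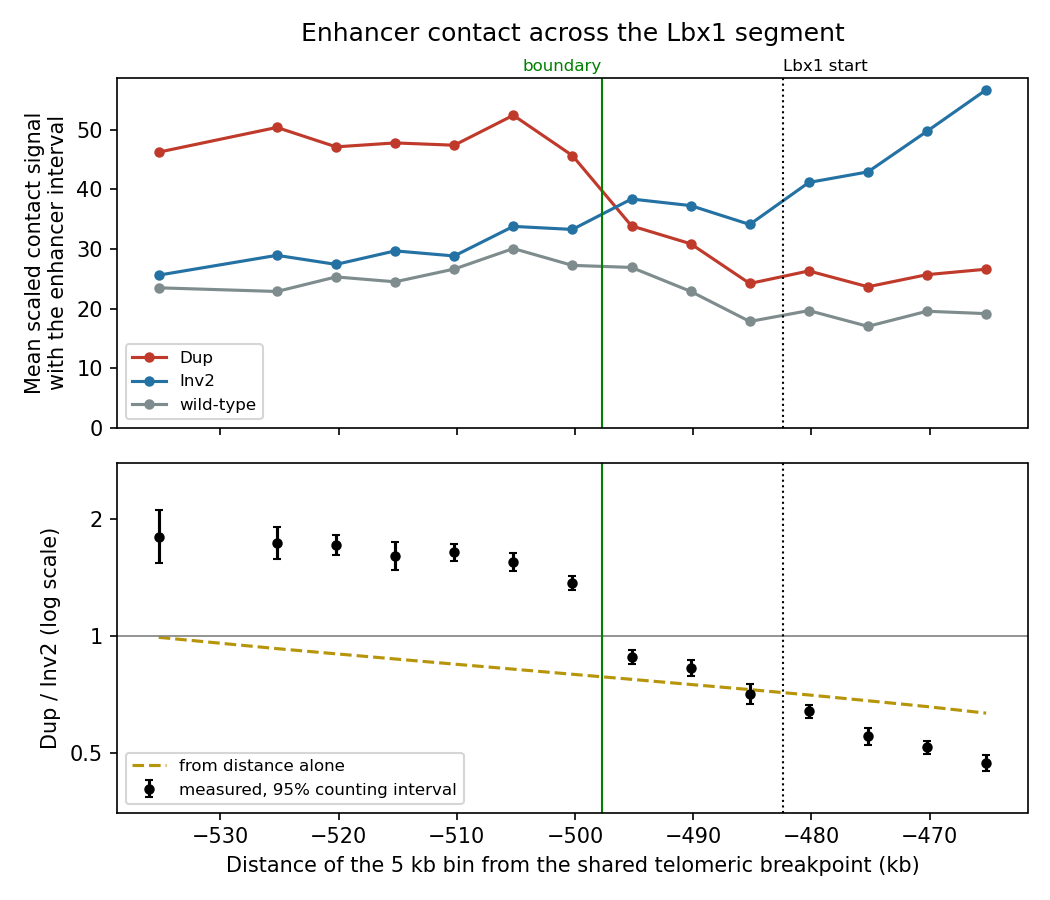
Top, mean scaled contact signal of each 5 kb bin of the Lbx1 segment with the AER enhancer interval in Dup (red), Inv2 (blue) and wild-type (grey). Bottom, the ratio of Dup to Inv2 on a log scale with 95% counting intervals (points) and the ratio that distance alone gives (dashed), against the distance from the shared breakpoint in kb. The green line marks the wild-type insulation minimum. The ratio is 1.37 to 1.81 on its left and 0.469 to 0.882 on its right.

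Set against the wild-type, the step came from both maps. On the centromeric side of the boundary, *Dup* had 45.7 to 52.5 and *Inv2* 25.6 to 33.8, against 22.9 to 30.1 in the wild-type. The *Inv2* bins there were only 1.08 to 1.27 times the wild-type, and the *Dup* bins 1.68 to 2.20 times. On the telomeric side *Dup* had 23.7 to 33.9 and *Inv2* 34.1 to 56.7, against 17.0 to 26.9 in the wild-type, which is 1.26 to 1.39 times for *Dup* and 1.43 to 2.96 times for *Inv2*. Each allele thus gained most on the side of the boundary where its own joint lies. The inner end of the shared breakpoint behaved alike, with a ratio of 1.74 (1.69 to 1.80) on the centromeric and 0.307 (0.301 to 0.313) on the telomeric side. For the enhancer contact, the layout by distance gave larger gains over the wild-type than measured in both alleles. On the centromeric side it gave 2.18 times in *Dup* against 1.87 measured, and 2.48 times in *Inv2* against 1.15. On the telomeric side it gave 1.89 times in *Dup* against 1.34, and 2.70 times in *Inv2* against 2.10.

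The centromeric side also differed in depth. Its bins held 0.839 times the wild-type read pairs in *Inv2*, with single bins from 0.627 to 1.08, and 2.14 times in *Dup*, while the telomeric side held 1.08 and 2.13 times. The part of this dip in the enhancer contact was not tested beyond balancing, which divides it out bin by bin. The same centromeric bins were also higher in *Dup* with the *Btrc* segment, by 1.48 (1.466 to 1.498) times. They were lower in *Dup* with the 200 kb centromeric of the *Dup* breakpoint, at 0.840 (0.829 to 0.852) times, and with the 50 kb outside the shared breakpoint, at 0.768 (0.747 to 0.790) times. These last ratios were 1.24 and 1.08 with the copy number kept. With 1 scaling factor for all distances the split of the 14 bins was the same, at 1.22 to 1.60 and 0.429 to 0.788 times. With the copy number kept, *Dup* was higher in all 14, by 3.12 to 4.33 times on the centromeric and 1.06 to 2.01 times on the telomeric side.

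In the 7 bins just beyond the *Dup* breakpoint the enhancer contact was lower in *Dup* than in *Inv2*. They had a signal of 12.6 with the enhancer interval in *Dup*, 15.9 in *Inv2* and 13.6 in the wild-type, a ratio of 0.793 (0.770 to 0.817), or 1.12 with the copy number kept. Distance alone gave a ratio of *Dup* to *Inv2* of 0.409. *Inv2*, in which this sequence is continuous with *Lbx1* and the joint, was 1.17 times the wild-type there, where distance alone gave 2.22. *Dup* was 0.927 times the wild-type, where distance alone gave 0.906.

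*Btrc* is carried together with the enhancers in both alleles, and its distance from them along a copy is unchanged. Its start had a signal of 20.5 with the enhancer interval in *Dup*, 17.8 in *Inv2* and 16.7 in the wild-type, a ratio of *Dup* to *Inv2* of 1.15 (1.06 to 1.25). The layout by distance gave 1.34, since *Dup* adds contact between the centromeric enhancer copy and the telomeric *Btrc* copy, 299 kb apart. Over 3 parts of the gene body, from its start to its end, the ratio was 1.18 (1.16 to 1.20), 1.16 (1.14 to 1.18) and 1.03 (1.01 to 1.05), and *Dup* was 1.37, 1.26 and 1.18 times the wild-type. With the copy number kept, the start of *Btrc* had 2.59 times the enhancer contact in *Dup* that it had in *Inv2*.

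*Lbx1* and *Btrc* themselves, which are neighbours in the reference order, met each other less in *Inv2* than in *Dup* or the wild-type. Over 3 bins at each start the signal was 36.6 in *Dup*, 14.3 in *Inv2* and 29.9 in the wild-type, a ratio of 2.56 (2.38 to 2.76). *Inv2* was at 0.478 times the wild-type. The whole *Lbx1* segment met the segment from the *Inv2* breakpoint to the middle boundary at 45620000, which holds *Btrc*, 1.88 (1.87 to 1.90) times more in *Dup*. As a share of the profile of *Lbx1*, this *Btrc* segment took 35.7% in *Dup*, 16.0% in *Inv2* and 35.8% in the wild-type. The segment from the middle boundary to the shared breakpoint, which holds *Poll* (a DNA polymerase), *Dpcd*, *Fbxw4* (an F-box protein) and the enhancers, took 13.2%, 25.7% and 10.7%. The start of *Fbxw4*, which is the gene start nearest to the shared breakpoint on the inside, met *Lbx1* 0.495 (0.471 to 0.520) times as much in *Dup* as in *Inv2*, and *Poll* did so 0.870 (0.838 to 0.904) times as much. Both directions turned with the copy number kept, to 1.13 and 1.97.

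*Fgf8* met its enhancers more in *Dup* than in *Inv2*. Its start had a signal of 52.6 with the enhancer interval in *Dup*, 18.99 in *Inv2* and 56.1 in the wild-type, a ratio of 2.77 (2.62 to 2.92) that rose to 3.68 with the copy number kept. *Dup* was 0.936 times the wild-type and *Inv2* 0.338 times. The layout by distance gave 2.12 between the alleles. Of the *Fgf8* profile, the enhancer interval took 7.46% (7.24 to 7.69) in *Dup*, 2.66% (2.54 to 2.79) in *Inv2* and 7.89% (7.61 to 8.18) in the wild-type. The enhancer interval and the *Fbxw4* start, which travel together, gave similar values, with 3.15 (2.98 to 3.34) times more contact between *Fbxw4* and *Fgf8* in *Dup*.

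With the *Btrc* segment the order was the opposite. That segment took 33.9% (33.6 to 34.3) of its profile in *Inv2*, 15.7% (15.4 to 16.0) in *Dup* and 15.9% (15.5 to 16.3) in the wild-type. The starts of *Btrc* and *Fgf8*, 379 kb apart in the reference order and 131 kb in *Inv2*, had a signal of 13.7 in *Dup*, 34.3 in *Inv2* and 13.2 in the wild-type, a ratio of 0.400 (0.371 to 0.431). *Oga*, which encodes the enzyme that removes O-GlcNAc from proteins and lies telomeric of *Fgf8*, met *Btrc* 0.576 (0.519 to 0.639) times as much in *Dup* as in *Inv2*. *Lbx1* lies inside the *Dup* interval and outside the inversion of *Inv2*, and *Fgf8* lies outside both. Their contact differed less, with 33.7 in *Dup*, 40.9 in *Inv2* and 37.5 in the wild-type. The ratio was 0.823 (0.786 to 0.862), an average over both *Lbx1* copies in *Dup*, and it turned to 1.11 with the copy number kept.

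Over the 35 annotated protein-coding starts of the captured region, which fall in 30 bins, 3 had at least 1.5 times more enhancer contact in *Dup* and 1 had at least 1.5 times less. Over all 377 bins outside the interval these shares were 11.1% and 1.06%. The 3 were *Fgf8*, its neighbour *Npm3*, which encodes a histone chaperone of the nucleoplasmin family (2.64, 2.51 to 2.78) and *Oga* (1.57, 1.45 to 1.70), in the order of their distance from the shared breakpoint, and the 1 was *Lbx1*. The median over the starts was 1.18 and that over all bins 1.22. These directions depended on the scaling. With 1 factor for all distances the medians were 0.912 and 0.936, with 17 bins at least 1.5 times higher and 28 at least 1.5 times lower. The 3 higher starts and *Lbx1* were joined by a second lower start, *Pax2*, at 0.624, which is named after its value was seen. After *Lbx1* the lowest were *Pdzd7* and *Sfxn3*, which share a bin centromeric of the rearrangements (0.862, 0.789 to 0.943). Among the other flanking genes the ratio was 0.914 (0.820 to 1.02) at *Tlx1*, a homeobox gene and the nearest to the *Dup* breakpoint, 1.12 (0.995 to 1.26) at *Twnk*, which encodes the mitochondrial DNA helicase, and 1.13 (0.982 to 1.30) at *Slf2*, and all 3 intervals include 1. *Poll* and *Dpcd*, which start in the same bin (0.936, 0.908 to 0.966), and *Fbxw4* (0.911, 0.876 to 0.947) move with the enhancers and were slightly lower in *Dup*, as was the contact of the enhancer segment with itself (0.885, 0.882 to 0.889). With the copy number kept, 30 of the 35 starts were at least 1.5 times higher in *Dup*, as were 342 of the 377 bins.

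**Figure D4:**
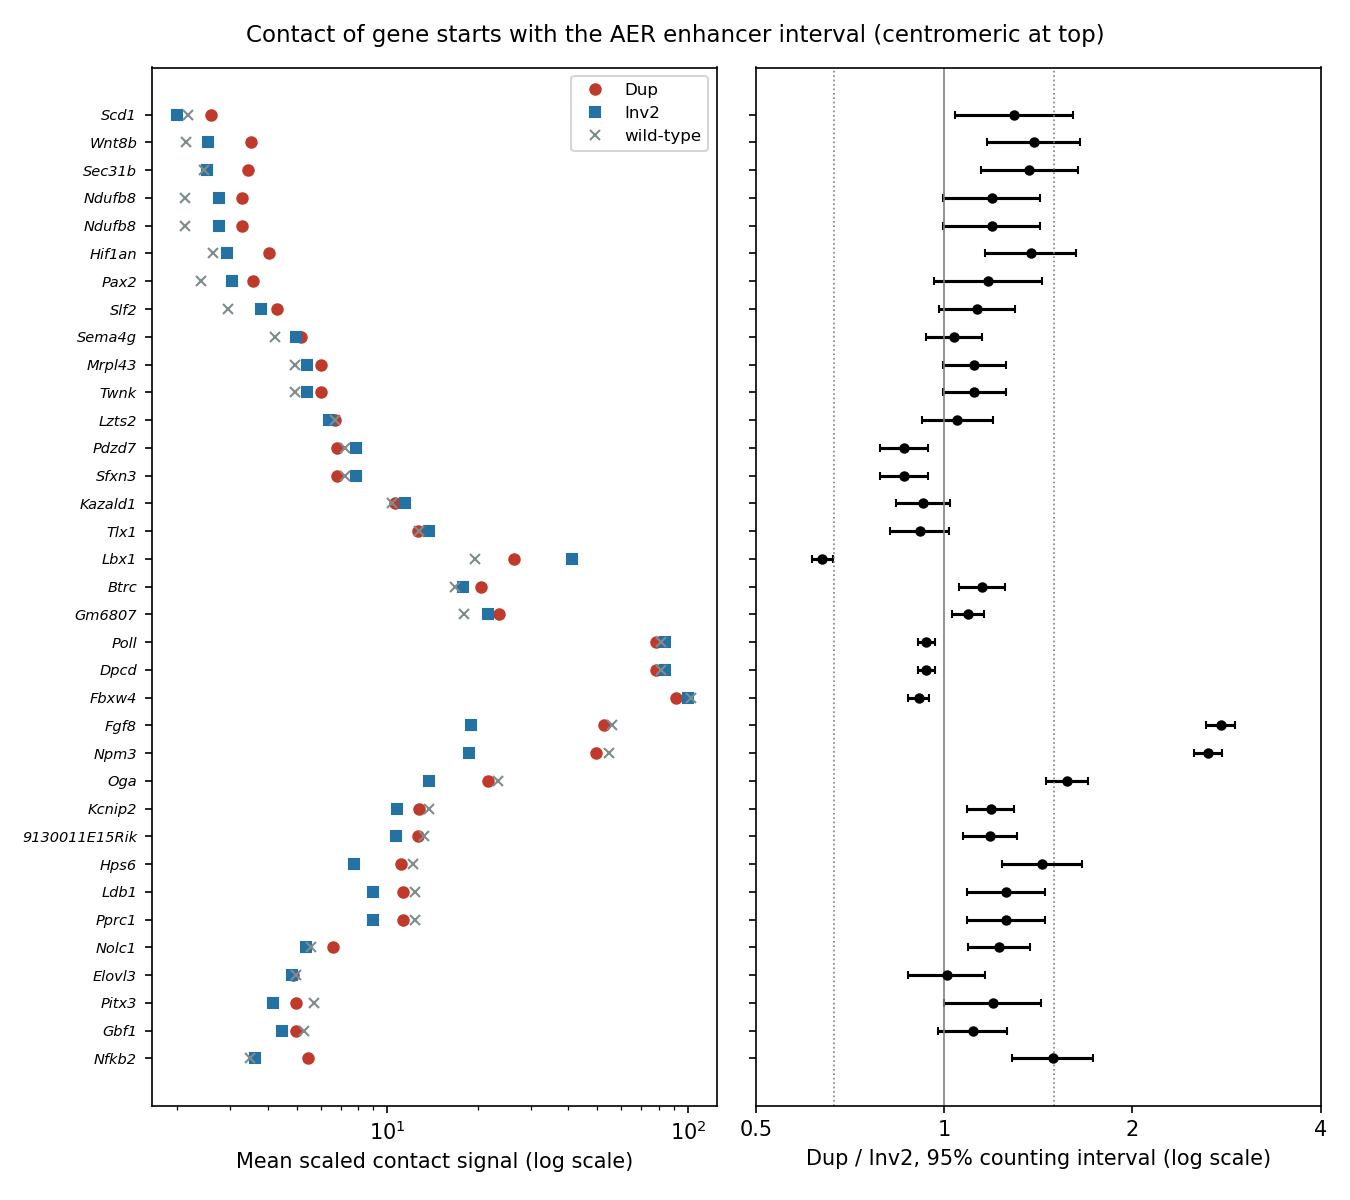
Left, mean scaled contact signal (log scale) of the bin of each protein-coding start with the AER enhancer interval in Dup (red circles), Inv2 (blue squares) and wild-type (grey crosses), in order along the chromosome from the centromeric end at the top. Right, the ratio of Dup to Inv2 with 95% counting intervals on a log scale, with dotted lines at the fold of 1.5. Lbx1, at 0.639, lies alone on the left, and Fgf8, Npm3 and Oga, at 2.77, 2.64 and 1.57, lie on the right.

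Contact between the flanks was lower in *Dup*. *Dup* puts its extra 541 kb between them and *Inv2* adds nothing. With 1 factor for all distances, taken from pairs within each flank, the 200 kb on each side of the rearranged interval had a signal of 3.85 with each other in *Dup*, 7.61 in *Inv2* and 7.04 in the wild-type. This was 0.506 (0.499 to 0.513) times as much in *Dup* as in *Inv2*, where distance alone gave 0.493. In the *Dup* order all these pairs lie at distances where the layout takes the fitted power law and not the wild-type means themselves. Over all bins of both flanks the ratio was 0.583 (0.579 to 0.586). *Tlx1* and *Fgf8*, which face each other across the rearranged interval, had 0.403 times the contact in *Dup* with the same single factor. With the scaling at each distance, which by its construction equalises pairs that include the flanks, it was 0.540 (0.490 to 0.595) times.

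The contact of the outer boundaries was above the mean for its distance in both. Squares of 3 × 3 bins around 45285001 to 45290000 and 45840001 to 45845000, centred on the strongest wild-type pair near the boundaries beside *Lbx1* and *Fgf8* and 555 kb apart, had 2.55 (2.42 to 2.70) times the mean of all pairs at this distance in *Dup*, 2.85 (2.71 to 3.00) times in *Inv2* and 3.49 (3.27 to 3.72) times in the wild-type. The ratio of *Dup* to *Inv2* was 0.895 (0.830 to 0.965). The centromeric square lies inside the duplicated interval. In *Dup* its value therefore averages a copy at 555 kb and a copy 541 kb farther away, and both are set against the mean at 555 kb. The centromeric and middle boundaries, which stay 325 kb apart within each *Dup* copy and come to lie 205 kb apart in *Inv2*, had 5.58 (5.48 to 5.68) times the mean at 325 kb in *Dup*, 3.77 (3.66 to 3.88) times in *Inv2* and 5.42 (5.25 to 5.59) times in the wild-type. The centres were chosen as the highest wild-type pairs, so the wild-type values lean upwards, and the comparison of *Dup* with *Inv2* does not use them.

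In blocks of 25 kb the differences were counted over the whole captured region. Of 3003 blocks with at least 20 read pairs in each map, 300 (9.99%) were at least 1.5 times higher in *Dup* and 106 (3.53%) at least 1.5 times lower. Of the 749 blocks with both ends in 1 flank, where the alleles have the same order, 1.2% were higher and 0.134% lower, and their central 95% lay between 0.856 and 1.29. The scaling makes the summed signal of pairs outside the rearranged interval equal in both maps at each distance. These blocks therefore lie near 1 by construction, and they show only the spread around it. Of the 1265 blocks with 1 end in the rearranged interval, 251 (19.8%) were higher and 84 (6.64%) lower. The strongest lower blocks joined the sequence on both sides of the centromeric *Inv2* breakpoint with that beside the shared breakpoint, and the strongest higher ones lay beside the shared breakpoint and at the joint of the *Dup* copies, where the highest block reached 4.96.

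**Figure D5:**
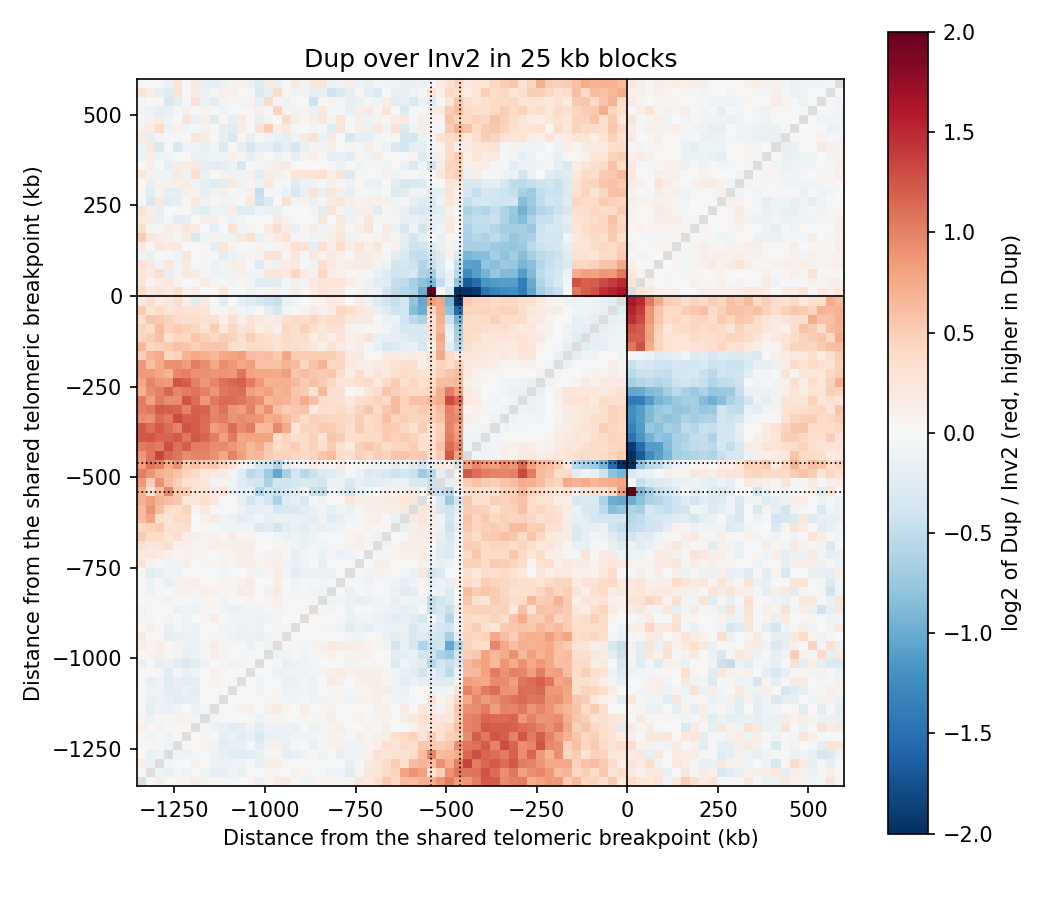
Ratio of Dup to Inv2 as log2 in blocks of 25 kb over the captured region (red, higher in Dup; blue, lower in Dup; grey, the diagonal), with both axes as distance from the shared telomeric breakpoint in kb. Solid lines mark the shared breakpoint and dotted lines the centromeric ones. Red blocks adjoin the shared breakpoint in the reference order. Of the 300 higher blocks, 241 join bins farther apart than the Dup interval is long, as do 1596 of all 3003 blocks. Blue blocks mark the contact of the telomeric flank with the inverted Btrc segment in Inv2. The flanks themselves are pale, with a median ratio of 0.999, which the scaling over these pairs sets near 1.

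Most of the higher blocks rested on the scaling. Of the 300, 241 were among the 1596 blocks that join bins farther apart than the *Dup* interval is long. The other 59 were among the 1407 nearer blocks. Beyond that length the scaling multiplied *Dup* relative to *Inv2* by 1.32 at 600 kb and 1.88 at 1000 kb. At 200 kb it did so by 1.00 and at 400 kb by 1.12. With 1 factor for all distances 45 blocks were higher and 878 lower, of which 44 and 103 were nearer than that length, against 59 and 80 with the scaling at each distance. The contacts at the joints, across the breakpoints, and of *Lbx1*, *Btrc* and *Fgf8* with the enhancers all lie within the nearer range.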

How the data were processed

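Forelimb and hindlimb buds from E11.5 embryos were assayed by capture Hi-C with DpnII. Per the paper's methods and the submitters' processing notes, the authors brought reads to the same length, mapped and deduplicated them on mm9 with HiCUP and Bowtie2 2.4.2, joined the replicates and binned read pairs of high mapping quality at 5 kb. The values deposited by the authors are contact signal: after Knight-Ruiz balancing with Juicer 1.19.02 for *Inv2* and the wild-type, and after LOIC normalization, which keeps the copy number, for *Dup*. In the deposited *Dup* map the bins of the duplication have 2 times the total of the others. Differences from the wild-type, virtual 4C profiles, *Inv1* and heterozygous maps were not used here. Since reads were not remapped, all positions are those of the reference order.

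All further steps used Python 3.11.15, numpy 2.4.6, scipy 1.17.1, pandas 2.3.3 and matplotlib 3.10.9. Bin factors were solved from the signal, and 100% of values were whole read pairs within 0.01. The *Dup* map was balanced to equal bin totals. Following the study's subtraction procedure, the maps were scaled at each distance over pairs outside the rearranged interval, then to a total of 1000000. A ratio is that of mean signals over a rectangle of bins, and its 95% interval spans 1.96 standard errors either way on the natural log scale, taken from the read pairs. Recovery of read pairs, balancing and scaling were tried on simulated maps without boundaries. Both simulated maps were balanced to equal bin totals, so LOIC normalization was not covered. Genes came from GENCODE on the same build, where *Slf2*, *Twnk* and *Oga* are named *Fam178a*, *Peo1* and *Mgea5*. The genes to be named were *Lbx1*, *Btrc*, *Poll*, *Dpcd*, *Fbxw4*, *Fgf8*, *Slf2*, *Twnk*, *Oga* and *Tlx1* and the 3 starts with the highest and the 3 with the lowest ratio. The comparison, regions and gene lists were chosen with earlier results of these data known, and the split of the *Lbx1* segment at the boundary was added after its values were seen.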

Additional observations from a re-analysis of the deposited data

Results flagged for a closer look

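Of 58 relations set against the wild-type, 3 moved in opposite directions in *Dup* and *Inv2*, with counting intervals on opposite sides of 1 and at least 1.5 times apart. With 1 merged map for each genotype the differences were not tested. The directions are those of the balanced maps, in which a duplicated bin of *Dup* is an average over both copies. *Dup* was not set against the wild-type with the copy number kept, so the opposite directions hold for the balanced maps only. Contact at the telomeric *Inv2* junction was 0.214 times as high in *Dup* as in *Inv2*, with *Dup* at 0.930 and *Inv2* at 4.34 times the wild-type. Contact of the 50 kb outside the centromeric *Dup* breakpoint with the last 50 kb inside the shared breakpoint was 0.510 times as high, with *Dup* at 0.873 and *Inv2* at 1.71 times the wild-type. Contact of the *Lbx1* segment with the *Btrc* segment was 1.88 times as high, with *Dup* at 1.03 and *Inv2* at 0.549 times the wild-type. With the copy number kept, these ratios of *Dup* to *Inv2* were 0.288, 0.740 and 4.24, in the same order. Pairs of gene starts were not among the 58 relations. Of these pairs, *Lbx1* with *Btrc* (2.56), *Lbx1* with *Tlx1* (0.599) and *Fbxw4* with *Tlx1* (0.586) met the same rule.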

How the results depend on the processing

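Of 39 alternative values for 12 results, 12 stayed within the counting interval of the value reported, or within 1.5 times for a count of blocks. With the *Dup* map as deposited, copy number kept, the ratio of *Dup* to *Inv2* for the enhancer contact of *Lbx1* reversed to 1.45, and the ratios were 2.59 at *Btrc*, 3.68 at *Fgf8*, 5.06 across the shared breakpoint, 3.66 at the *Dup* junction, 0.936 and 0.288 at the centromeric and telomeric *Inv2* junctions and 0.473 between the flanks. It gave 1117 blocks higher and 26 lower in *Dup*. With 1 factor for all distances the ratio was 0.580 at *Lbx1*, 1.39 at the *Dup* junction, 0.363 and 0.191 at the *Inv2* junctions, with 45 blocks higher and 878 lower. With windows of 25 kb it was 5.73 across the shared breakpoint, 2.77 at the *Dup* junction and 0.177 and 0.126 at the *Inv2* junctions. Between the flanks it was 0.802 with the scaling at each distance, which by its construction equalises pairs that include them, and 0.453 with windows of 100 kb. A fold of 2 gave 96 blocks higher and 26 lower, and blocks of 50 kb, of which there are fewer, 72 and 22. Leaving out bins of low coverage moved the ratio of read pairs inside the interval to 2.00. Blocks without a breakpoint, a setting chosen after seeing the data, numbered 270 higher and 85 lower. No paired analysis was possible because each deposited map joins all libraries of its genotype, and for the same reason no replicate could be left out. The counting intervals do not cover differences between limb buds or genetic background.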
